A study of Bos taurus with 9 samples.

Results

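NUPR1, LRRN1 and AGFG2 are 3 genes of bovine nucleus pulposus cells whose signal rose 8-fold or more after 24 h in salt and to which no part in osmotic adaptation had been assigned. They were chosen for that rise from the same arrays, as probe sets (groups of short probes read as a unit) that the platform annotation assigns to a single gene symbol. Each of the 3 genes had 1 such probe set, out of 9155 genes with at least 1, and all 3 probe sets passed a filter on low signal. The 24 h rise is therefore the reason these genes are described here. It is given as a description without a test, and so are the other differences between these groups for the same genes.

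The cells came from the nucleus pulposus, the gelatinous centre of the intervertebral disc, of caudal (tail) discs of young calves, and they were cultured in serum-containing DMEM. There were 3 groups of 3 arrays: untreated cells, cells brought to 500 mOsm/kg with salt for 5 h, and cells brought to 500 mOsm/kg with salt for 24 h. The labels call the arrays of a group biological replicates and name no animals, so the spread given here is that between cultures and may be partly technical. The untreated arrays carry no time, and the same untreated arrays serve both salt times, so time in culture and time in salt cannot be told apart. The design asks how the transcripts of these cells respond to hyperosmotic stress after a short and a long exposure.

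In hyperosmotic medium water leaves the cell, ions become concentrated, and the cell adapts over hours by taking up or making organic osmolytes. Disc cells meet such changes in daily life, because load on the disc squeezes water from its proteoglycan-rich matrix. NUPR1 (also called p8) is a small, intrinsically disordered nuclear protein that binds chromatin-associated partners and is induced by many kinds of cell stress, in part downstream of the transcription factor ATF4. LRRN1 is a single-pass membrane protein with extracellular leucine-rich repeats, known mainly from the developing nervous system. AGFG2 belongs to the ArfGAP proteins, which act on small Arf GTPases of membrane traffic; it carries phenylalanine-glycine (FG) repeats and has AGFG1 as its close relative.

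Probe set intensities of an array had a median between 67.1 and 84.5 and reached at most 15435.1. Differences are given as log2(intensity + 16), which understates changes of dim probe sets. The 3 arrays numbered 3, 1 from each group, stood apart from the other 6 on the main principal component (47.7% of the variance), and arrays that share a number deviated from their group means together. Untreated replicate 1 lay nearer to the 24 h arrays on the next component (31.1%), with a score of 0.011 against 22.3 and 29.6 for the other untreated arrays. Values are therefore also given within each replicate number and without these arrays. Of 14 nucleus pulposus markers 8 had a probe set. ACAN and COL2A1 stood at 497 to 2139 and 40 to 330 across the untreated arrays, while KRT8, KRT18, KRT19 and CHAD had mean intensities under 50 in every group.

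NUPR1 (NCBI gene 614673) lay above the array median in untreated cells already. Its intensity in untreated replicates 1, 2 and 3 was 366.5, 133.7 and 284.2. After 5 h in salt it was 1065.1, 419.6 and 1344.6, and after 24 h it was 2423.2, 2147.3 and 2498.3. The 3 groups did not overlap: every 5 h array lay above every untreated array and every 24 h array above every 5 h array. Replicate 2 was the lowest of its group at each time. The gap between untreated and 5 h arrays was narrow, from 366.5 to 419.6.

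The group means of NUPR1 were 261 ± 118, 943 ± 474 and 2356 ± 185 (SD, n = 3 each). On the log2 scale NUPR1 stood 1.74 ± 0.45 (SE) above untreated cells at 5 h and 3.20 ± 0.45 above them at 24 h, with 1.46 ± 0.45 between 5 h and 24 h. The 5 h difference was thus 54.4% of the 24 h difference on this scale. Arrays within a group were far apart in untreated cells and at 5 h, with a log2 SD of 0.70 and 0.87, and close together at 24 h, with a log2 SD of 0.11.

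Within replicate numbers, the intensity of NUPR1 was 2.91, 3.14 and 4.73 times the untreated value at 5 h in replicates 1, 2 and 3. At 24 h the ratios were 6.61, 16.1 and 8.79. The 5 h ratio was largest in replicate 3, and the log2 difference at 5 h had an SD of 0.38 over the 3 replicates. Since the 24 h levels were close together, the 24 h ratio was highest where the untreated level, its denominator, was lowest. From 5 h to 24 h NUPR1 went up a further 2.28, 5.12 and 1.86 times. The log2 difference between these times depended on 5 h replicate 2: without it, it was 0.96 in place of 1.46.

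LRRN1 (NCBI gene 539619) was dim in untreated cells, at 35.3, 9.3 and 26.2 in replicates 1, 2 and 3, below the median of every array. After 5 h its intensity was 24, 22.8 and 28.3. After 24 h it was 388.2, 188 and 392.9. The 5 h values lay inside the untreated range, and the 24 h values lay above all others.

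The group means of LRRN1 were 23.6 ± 13.2, 25 ± 2.9 and 323 ± 117 (SD, n = 3 each). The log2 difference from untreated cells was 0.11 ± 0.33 (SE) at 5 h and 3.09 ± 0.33 at 24 h, so that 3.54% of the 24 h difference was present at 5 h. The small 5 h difference had no steady direction: it was -0.36, 0.62 and 0.07 within replicates 1, 2 and 3, and it turned to -0.18 without untreated replicate 2. The 24 h difference was 2.98, 3.01 and 3.28 within the same replicates, with an SD over them of 0.16. On this scale the pseudocount narrows the spread of so dim a gene, so this SD is not comparable with those of brighter genes.

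Because LRRN1 lies near the floor in untreated cells, the size of its rise depends on the pseudocount. As plain ratios of intensity, LRRN1 at 24 h was 11 and 15 times the untreated value in replicates 1 and 3. No ratio is given for replicate 2, whose untreated intensity of 9.3 lies below 17.1, the intensity that corresponds to the low-signal filter. The log2 difference at 24 h was 3.83 with a pseudocount of 1 and 2.10 with 64, under the threshold of 3 that the choice of genes rests on.

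AGFG2 (NCBI gene 510361) had untreated intensities of 497.1, 301.9 and 252.7 in replicates 1, 2 and 3. After 5 h its intensity was 689.3, 361.7 and 620.1. After 24 h it was 3535.8, 2743.3 and 2482.7. Replicate 1 was the highest of its group at each time. The 5 h values overlapped the untreated range through replicate 2, and the 24 h values lay far above both.

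The group means of AGFG2 were 351 ± 129, 557 ± 173 and 2921 ± 548 (SD, n = 3 each). The log2 difference from untreated cells was 0.65 ± 0.30 (SE) at 5 h and 3.04 ± 0.30 at 24 h, and 21.4% of the 24 h difference was present at 5 h. Within replicates 1, 2 and 3 the intensity was 1.39, 1.20 and 2.45 times the untreated value at 5 h, above it in each. At 24 h the ratios were 7.11, 9.09 and 9.82. Without the 3 arrays numbered 3, the 5 h difference of AGFG2 was 0.35 and its 24 h difference 2.95.

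**Figure D1:**
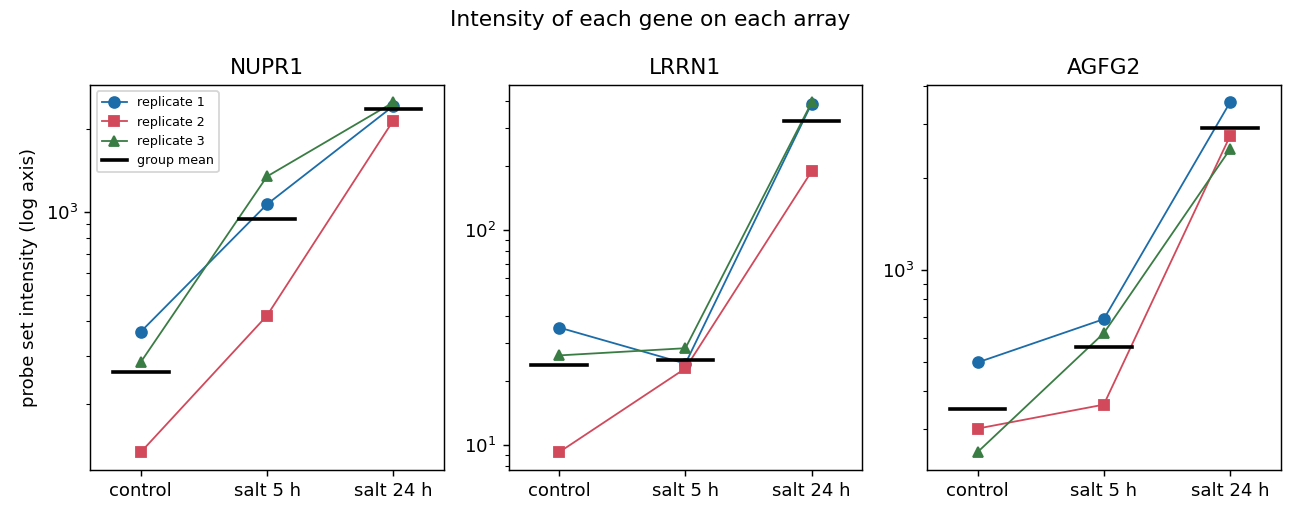
Probe set intensity on a log axis for NUPR1, LRRN1 and AGFG2 in untreated cells and after 5 h and 24 h in salt; symbols are single arrays, coloured lines join arrays that share a replicate number, and black bars are group means. NUPR1 climbs in both steps, LRRN1 stays between 9.3 and 35.3 until the 24 h arrays, and AGFG2 climbs mainly after 5 h.

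The 3 genes thus followed different courses to 24 h. Their log2 differences at 24 h were of similar size at the pseudocount used here, but for LRRN1 this size depends on the pseudocount. With a pseudocount of 1 the differences were 3.28 for NUPR1, 3.83 for LRRN1 and 3.10 for AGFG2. With 64 they were 2.96, 2.10 and 2.88 in the same order. All 24 h arrays lay above all untreated arrays for 3 of 3 genes, a pattern that 13.9% of the 18012 probe sets tested showed and that the choice of genes made likely. All 5 h arrays lay above all untreated arrays for 1 of 3, NUPR1, against 4.04% of probe sets. For 3 of 3 all 24 h arrays lay above all 5 h arrays, against 18.1%, which the choice on the 24 h arrays also made likely. In the order of levels, untreated cells and 5 h overlapped for LRRN1 and AGFG2, and no neighbouring groups overlapped for NUPR1. Replicate 2 was the lowest array of its group in all 3 groups for NUPR1 and LRRN1, as it was for 11.6% of probe sets.

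**Figure D2:**
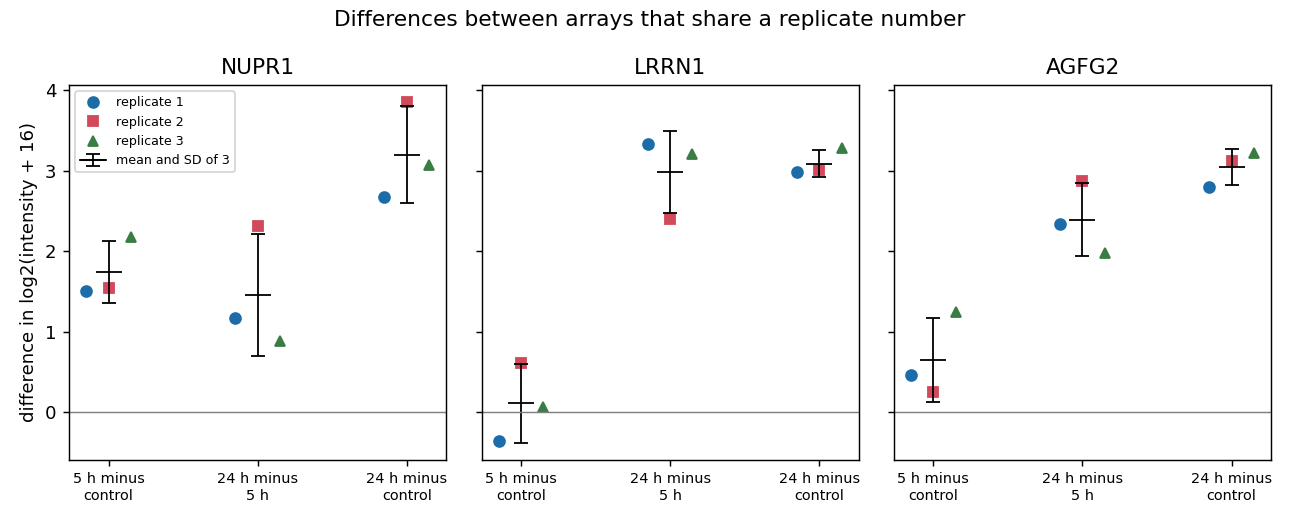
Differences in log2(intensity + 16) between arrays that share a replicate number, for 5 h minus untreated (labelled control), 24 h minus 5 h and 24 h minus untreated; symbols are the 3 replicates and black marks the mean with its SD over them. LRRN1 lies around 0 in the first step and between 2.39 and 3.34 in the next, whereas NUPR1 has a mean of 1.74 in the first step.

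A log2 rise of 3 or more at 24 h was reached by 13 of 18012 probe sets (0.0722%), of which 10 had a single gene symbol. Their order by size is not firm. CRYAB, a small heat shock protein gene, stood at 13375.4, 14234.6 and 13054.2 on the 24 h arrays, close to the highest value on those arrays, so its rise may be understated. FXYD2, S100G and LOC407163 had untreated means of 4.17, 2.43 and 3.87, so that the pseudocount sets the size of their rise. The probe sets just inside the threshold were AGFG2 at 3.04, LOC407163 at 3.06 and CRYAB at 3.08. Just outside it were the chemokine-scavenging receptor gene ACKR4 at 2.98, the complement receptor gene C5AR2 at 2.97 and the growth factor binding protein gene IGFBP5 at 2.94. The threshold thus falls in a stretch where neighbouring genes differ by far less than the standard error of 0.30 of AGFG2. Leaving out untreated replicate 2 alone gave 2.80 for NUPR1, 2.80 for LRRN1 and 2.97 for AGFG2, all below the threshold.

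Over the same 10 probe sets the 5 h difference ranged from -0.33 (ACSS2, an acetyl-CoA synthetase) to 1.74 (NUPR1), with a median of 0.21 against -0.03 over all probe sets tested. NUPR1 and the membrane transporter SLC4A11, at 1.34, were the 2 with a 5 h difference of 1 or more. LRRN1 was among 6 with a 5 h difference under 0.5, and AGFG2 lay between them, beside CRYAB at 0.65. Among all 18012 probe sets, NUPR1 had place 25 by its 5 h difference, AGFG2 place 358 and LRRN1 place 4335. These differences share the untreated arrays with the 24 h differences.

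**Figure D3:**
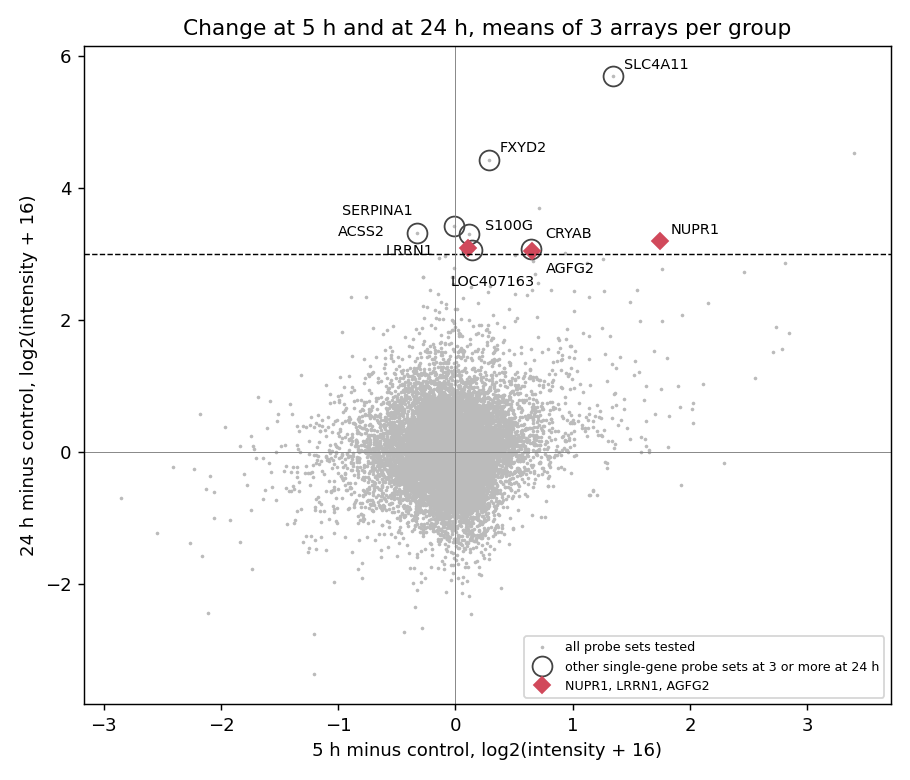
Difference from untreated cells (labelled control) in log2(intensity + 16) at 5 h (horizontal) and 24 h (vertical) for each probe set tested; diamonds are NUPR1, LRRN1 and AGFG2, open circles the other single-gene probe sets at or above the dashed line at 3, and the circle of CRYAB surrounds the diamond of AGFG2. NUPR1 lies farthest right of the named probe sets, at 1.74, and LRRN1 lies near 0 on the horizontal axis.

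The array pattern of each gene was compared with those of 7772 other genes by Pearson's r over the 9 arrays on the log2 scale. Such an r mostly follows the differences between the 3 groups, ignores the size of a change and is used only to order genes. LRRN1 had 94 genes with r over 0.95, AGFG2 had 34 and NUPR1 had 11. Among the 3 genes, r was 0.94 between LRRN1 and AGFG2, 0.90 between NUPR1 and AGFG2 and 0.82 between NUPR1 and LRRN1. Spearman's rank correlation gave another order, with 0.75, 0.90 and 0.82 for the same pairs in turn. By closeness to NUPR1, AGFG2 took place 49 and LRRN1 place 184, and by closeness to LRRN1, AGFG2 took place 116.

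The genes closest to NUPR1 were AFTPH, an adaptor of clathrin traffic (r = 0.99), the hyaluronan receptor gene LYVE1 (0.98), CDS2, an enzyme of phosphatidylinositol synthesis (0.97), the tyrosine phosphatase gene PTPN13 (0.97) and the nuclear receptor gene NR4A2 (0.96). Their log2 differences at 24 h were smaller than that of NUPR1, from 0.61 for CDS2 and 0.73 for AFTPH to 1.72 for NR4A2 and 2.45 for LYVE1. All 5 shared with NUPR1 a 5 h replicate 2 that was lower than the other 5 h arrays, which their choice by r over these arrays made likely. NR4A2, for example, stood at 1830.6, 896.4 and 2183.4 in 5 h replicates 1, 2 and 3. NUPR1 itself had a 5 h difference of 2.23 without that array and 1.74 with it.

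The genes closest to LRRN1 were CCDC3, which encodes a secreted protein, the secreted glycoprotein gene OLFML3, the channel-associated factor gene TCAF2, the protease inhibitor gene SERPINA1 and the Golgi mannosidase gene MAN2A2, all with r = 0.99. Their 5 h differences lay between -0.17 for TCAF2 and 0.056 for MAN2A2, and their 24 h differences ran from 0.74 for MAN2A2 to 3.43 for SERPINA1. In CCDC3, OLFML3, TCAF2, SERPINA1 and MAN2A2, as in LRRN1, 24 h replicate 2 was the lowest of the 24 h arrays. Their choice by r made this likely as well.

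The genes closest to AGFG2 were SLC4A11 (r = 0.99), the mitochondrial hydrolase gene FAHD1 (0.99), the mitochondrial ribosomal protein gene MRPS6 (0.98), NPRL2, a subunit of an mTORC1-inhibiting complex (0.98), and PTGES, an enzyme of prostaglandin E synthesis (0.98). Their 24 h differences ran from 0.92 for NPRL2 and 1.06 for FAHD1 to 1.70 for MRPS6, 2.52 for PTGES and 5.70 for SLC4A11. PTGES and SLC4A11 had untreated means of 7.07 and 18.5, near the floor, so the size of their rises depends on the pseudocount. In the current bovine annotation (ARS-UCD2.0) MRPS6 overlaps SLC5A3, the gene of the inositol transporter, so a signal named MRPS6 is uncertain between them where probes cover the shared part.

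**Figure D4:**
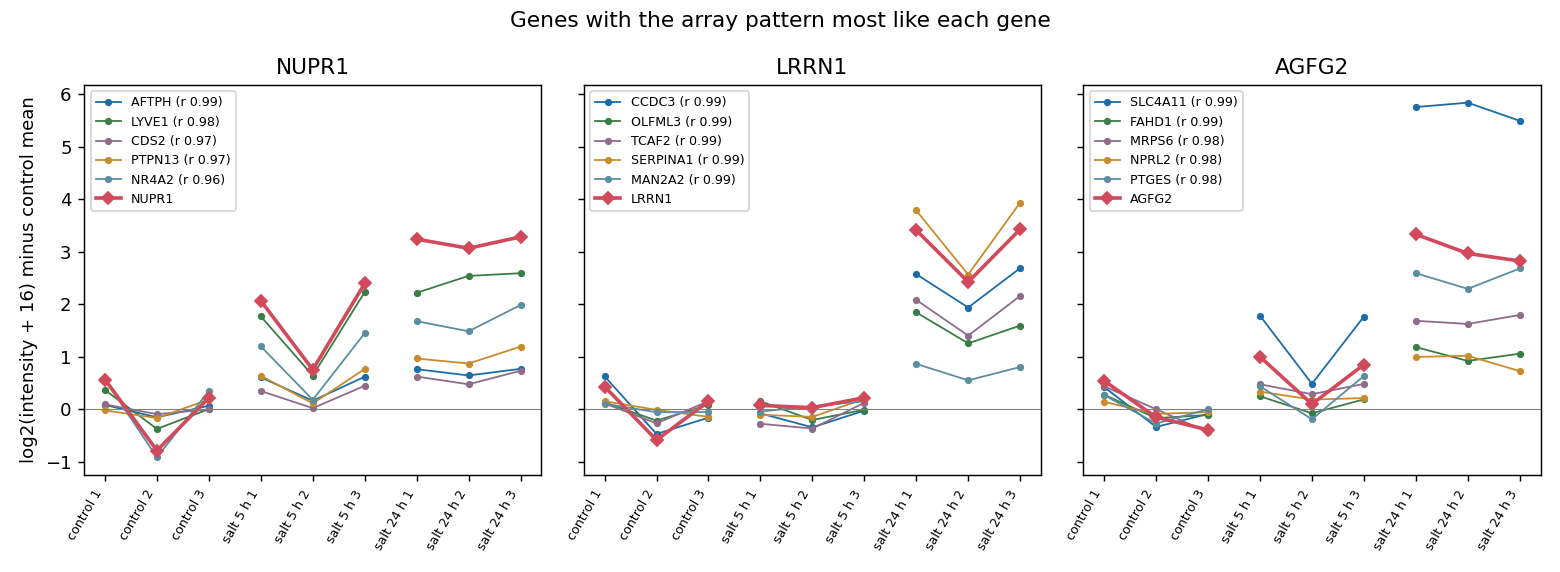
Values of log2(intensity + 16) minus the mean of the untreated (control) arrays, for NUPR1, LRRN1 and AGFG2 (diamonds) and the 5 genes with the highest Pearson r to each (circles), on the 9 arrays; lines join arrays of a group and carry no order. The dip at 5 h replicate 2 is shared by NUPR1 and its 5 closest genes, and the flat 5 h values by LRRN1 and its own. The choice by r made both likely.

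Genes known to act with or beside the 3 were then read from the fit over all probe sets, with a call at an adjusted p under 0.05 (limma, Benjamini-Hochberg). At 5 h, 0.233% of the 18012 probe sets were called higher and 0.25% lower. At 24 h, 4.28% were called higher and 4.32% lower. With the replicate number as a block these shares were 2.45% and 3.41% at 5 h and 18.3% and 17.5% at 24 h.

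Of the binding partners and targets of NUPR1, 2 were called at 24 h, in opposite directions. Of 15 listed genes 10 had a probe set and passed the filter; at 24 h 1 was higher, 1 lower and the median was -0.17, against 0.02 over all probe sets. The stress response gene IER3, reported to act downstream of NUPR1, rose by 0.69 ± 0.11 (SE) on the log2 scale at 5 h (limma adjusted p = 0.039), from 4795 ± 540 (SD, 3 arrays) to 7749, and it was 0.46 ± 0.11 higher at 24 h (limma adjusted p = 0.036). The mitophagy receptor gene BNIP3, reported to be repressed with FOXO3 by NUPR1, fell by 1.64 ± 0.22 at 24 h (limma adjusted p = 0.0058), from 2832 ± 793 to 872 ± 56 (SD, n = 3). The pseudokinase gene TRIB3 stood at -0.97 ± 0.39 with limma adjusted p = 0.17, and 0.012 with the replicate block. The chromatin partner PTMA stood at -0.37 (limma adjusted p = 0.13, and 0.0040 with the block), and CDKN1A at 0.27 with limma adjusted p = 0.68. With the block 1 member was higher and 3 lower at 24 h. Without the block the IER3 calls were not stable. They held in 1 of 9 refits that leave out an array at 5 h and in 3 of 9 at 24 h. Both ended with each array centred on its median and without the 3 arrays numbered 3. With the block, over all arrays, IER3 had a limma adjusted p of 0.002 at 5 h and 0.0029 at 24 h.

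In the integrated stress response, the ATF4 pathway through which NUPR1 can be induced, more genes fell than rose at 24 h. Of 32 listed genes 23 were measured and passed; 1 was higher and 4 were lower, with a median of -0.21, and with the block 1 was higher and 9 lower. ATF4 itself stood at 0.35 at 5 h (limma adjusted p = 0.80, and 0.046 with the block) and at 0.11 at 24 h (limma adjusted p = 0.81). DDIT3, another transcription factor of this pathway, stood at 0.29 and -0.22 (limma adjusted p = 1.0 and 0.79). ATF3 rose by 1.99 ± 0.36 (SE) at 24 h (limma adjusted p = 0.015), from an intensity of 268 ± 126 to 1115 ± 530 (SD, n = 3), and already stood at 1.76 at 5 h (limma adjusted p = 0.098, and 0.013 with the block). Without the block its 24 h call ended when untreated replicate 2, untreated replicate 3 or 24 h replicate 1 was left out, with a highest limma adjusted p of 0.063. With the block, over all arrays, ATF3 had a limma adjusted p of 0.0014 at 24 h.

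The 4 members called lower at 24 h without the block are targets of ATF4 in amino acid supply and one-carbon metabolism. With the block SHMT2 was also lower, at -1.07 (limma adjusted p = 0.17, and 6.8e-04 with the block). So were TRIB3, ATF5, CEBPG and VLDLR, which lie outside these functions. The listed gene SLC3A2 stood at -0.05 (limma adjusted p = 0.98, and 0.88 with the block). The gene of the amino acid transporter SLC7A5 fell by 2.12 ± 0.26 (SE; limma adjusted p = 0.0050), from an intensity of 529 ± 120 to 112 ± 40 (SD, n = 3). That of the mitochondrial folate enzyme MTHFD2 fell by 1.14 ± 0.18 (limma adjusted p = 0.0094). Of the 3 serine synthesis genes measured, 2 were called: PHGDH fell by 1.19 ± 0.27 (limma adjusted p = 0.031) and PSAT1 fell by 1.15 ± 0.25 (limma adjusted p = 0.028). PSPH, which encodes the last enzyme of that pathway, stood at -0.10 ± 0.26 (limma adjusted p = 0.91, and 0.79 with the block). SLC7A5 and MTHFD2 kept their call in 9 of 9 refits that leave out an array. PHGDH and PSAT1 did so in 3 of 9, with highest limma adjusted p of 0.12 and 0.097. These refits had no block. With the block, over all arrays, PHGDH and PSAT1 had a limma adjusted p of 8.3e-05 and 5.3e-04. NUPR1 was high on the same 24 h arrays on which these 4 genes were low, and a link between these changes was not tested. At 5 h 0 members were called by limma without the block (1 higher and 3 lower at an unadjusted p under 0.05), and 2 were higher and 1 lower with it. From 5 h to 24 h, where limma called 8.01% of probe sets higher and 6.15% lower (24.2% and 19.6% with the block), all 4 fell as well.

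Relatives of LRRN1 were poorly covered. Of 46 listed genes of cell-surface or secreted leucine-rich repeat proteins, 10 had a probe set and 6 passed the filter, and limma called 0 at either time. At an unadjusted p under 0.05, 1 was higher and 1 lower at 5 h, and 4 were higher and 1 lower at 24 h. LRRN2, the nearest relative measured, had intensities of 155 ± 65 in untreated cells and 283 ± 88 at 24 h (SD, n = 3), a log2 difference of 0.83 ± 0.35 (SE; limma adjusted p = 0.20, and 0.0013 with the block). LRRN3 and LRRN4 were not analysed here, since no probe set was assigned to either alone. AMIGO2, an adhesion protein, stood at 1.53 ± 0.32 at 5 h (limma adjusted p = 0.11, and 0.0032 with the block) and 1.16 ± 0.32 at 24 h (limma adjusted p = 0.060, and 0.0022 with the block). Its 5 h intensities of 923.9, 372.2 and 875.6 in replicates 1, 2 and 3 had the same low replicate 2 as those of NUPR1. LRIG3 stood at -0.72 (limma adjusted p = 0.11, and 0.0019 with the block). The median of the 6 at 24 h was 0.56, and with the block 4 were higher and 1 lower.

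LRRN1 is known best from neural tissue, and neural markers were therefore read beside it. Of 10 such markers with a probe set 7 had mean intensities under 50 in each group, among them STMN2, NEFM, SNAP25, GAP43 and SYT1. The summed intensity of the 10 ranged from 3149 to 4365 on the untreated arrays, from 2963 to 3151 at 5 h and from 3680 to 4543 at 24 h. S100B, which cartilage-like cells also express, made up most of it, at 2670 to 3873 on the untreated arrays. Of the 6 neural markers that passed the filter, 1 was called higher and 0 lower at 24 h by limma, and 2 higher and 1 lower with the block. SYT1, a protein of synaptic vesicles, rose at 24 h by 0.63 ± 0.15 on the log2 scale (SE; limma adjusted p = 0.0375), from 25.6 ± 1.5 to 48.3 ± 6.7 (SD, n = 3), which is still dim. MAP2, a neuronal cytoskeletal protein, stood at -0.84 ± 0.34 (limma adjusted p = 0.17, and 0.0013 with the block). Summed leukocyte markers ranged from 249.3 to 277.1 on the untreated arrays and from 465.9 to 500.5 at 24 h, with 9 of 10 genes under a mean of 50 in each group and CD14 making most of the difference. Summed muscle markers ranged from 1045 to 1323 and from 2333 to 3758, mostly through CKM, with 4 of 7 under 50. Annulus and tendon markers had 2 of 6 called higher and 0 lower at 24 h (4 and 2 with the block), with a median of 0.58. COL12A1, a fibril-associated collagen, rose by 1.73 ± 0.18 (limma adjusted p = 0.0033) and THY1, a fibroblast surface protein, by 0.74 ± 0.18 (limma adjusted p = 0.037). The 2 lower with the block were the type I collagen genes COL1A1 at -0.32 and COL1A2 at -0.22. Their limma adjusted p was 0.84 and 0.40, and 0.046 and 0.026 with the block. The summed intensity of the annulus and tendon markers ranged from 16658 to 25015 on the untreated arrays and from 21152 to 25541 at 24 h. Summed nucleus pulposus markers ranged from 6145 to 7366 and from 8028 to 10135. HIF1A made up most of the untreated sum, at 3669 to 5185. From untreated cells to 24 h the mean intensity went from 1261 to 2995 for ACAN, from 4336 to 5278.5 for HIF1A and from 182 to 130 for COL2A1. Of the 5 nucleus pulposus markers that passed the filter, limma called 0 at 24 h, and with the block 2 higher and 0 lower. The part of other cell types in the rises of NUPR1, LRRN1 and AGFG2 was not tested, and in bulk RNA a change in the share of a cell type and a change per cell cannot be told apart.

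Calls in the family of AGFG2 were near the shares over all probe sets (4.28% higher and 4.32% lower at 24 h). Of 38 listed ArfGAP, Arf and EH-domain genes 22 had a probe set and 21 passed; limma called 0 higher and 1 lower at 24 h (3 and 3 at an unadjusted p under 0.05), with a median of 0.01. Without untreated replicate 1, without 24 h replicate 3 or without the 3 arrays numbered 3, 1 was called higher and 1 lower. AGFG1, its close relative, had intensities of 724 ± 267 in untreated cells and 857 ± 329 at 24 h (SD, n = 3), a log2 difference of 0.23 ± 0.43 (SE; limma adjusted p = 0.84). The member that fell was the small GTPase gene ARF2, by 0.92 ± 0.12 from 2554 ± 270 to 1336 ± 102 (limma adjusted p = 0.0054), and it kept its call in 9 of 9 refits that leave out an array. ACAP1, an ArfGAP of endosomes, stood at 1.01 ± 0.30 (limma adjusted p = 0.071, and 0.0070 with the block). With the block 3 of the 21 were higher and 5 lower at 24 h, and 1 was higher at 5 h, AGFG1 at 0.37 (limma adjusted p = 0.048 with the block and 1.0 without).

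**Figure D5:**
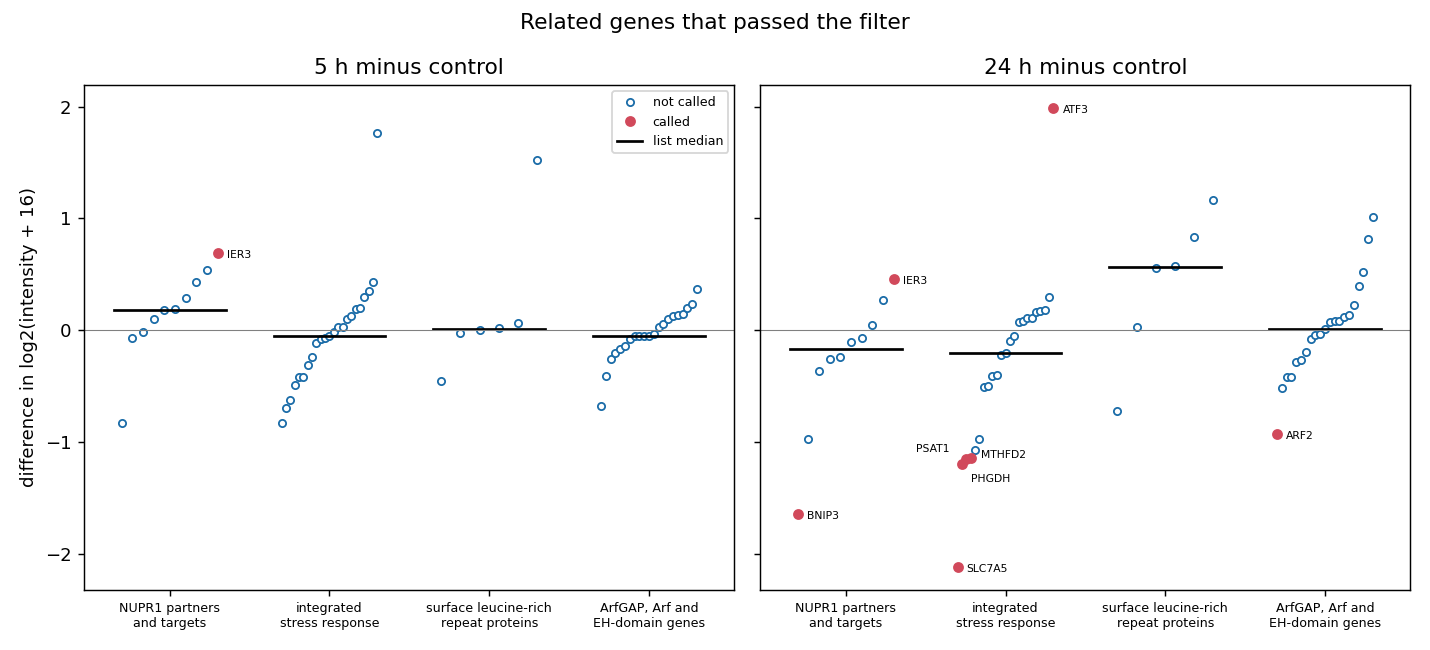
Difference from untreated cells (labelled control) in log2(intensity + 16) at 5 h (left) and 24 h (right) for the members of 4 related gene lists that passed the filter, each a mean of 3 arrays against 3; filled points are called at a limma adjusted p under 0.05 and bars are list medians. At 24 h filled points lie mostly below 0 (6 of 8), at a time when NUPR1, LRRN1 and AGFG2 stood at 3 or more.

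The protein-coding genes next to NUPR1, LRRN1 and AGFG2 in the current bovine annotation, 5 on either side, were also read. Of 30 such neighbours 17 had a single-gene probe set and 16 passed the filter. At 24 h limma called 3 of the 16 higher and 0 lower, 1 beside each of the 3 genes (6 and 0 at an unadjusted p under 0.05). Over all probe sets 4.28% were called higher and 4.32% lower. With the block 6 of the 16 were higher and 0 lower, against 18.3% and 17.5% of all probe sets. The median difference of the 16 was -0.01. The sulfotransferase gene SULT1A1, near NUPR1, rose by 1.49 ± 0.21 (SE) on the log2 scale, from 1263 ± 265 to 3559 ± 488 (SD, n = 3; limma adjusted p = 0.0067), and kept its call in 9 of 9 refits that leave out an array. TSC22D4, a transcription regulator near AGFG2, rose by 1.38 ± 0.32 (limma adjusted p = 0.0325), and the inositol trisphosphate receptor gene ITPR1, near LRRN1, by 0.72 ± 0.14 (limma adjusted p = 0.020). These 2 calls held in 4 and 5 of 9 refits without the block, with highest limma adjusted p of 0.12 and 0.082. With the block, over all arrays, TSC22D4 and ITPR1 had a limma adjusted p of 1.02e-04 and 0.0013. At 5 h SULT1A1 and ITPR1 stood at -0.18 and -0.25 and TSC22D4 at 0.87 (limma adjusted p = 0.50, and 0.0048 with the block). BHLHE40, near LRRN1, fell by 1.64 ± 0.27 at 5 h (limma adjusted p = 0.041, and 0.0049 with the block). Without the block this call was kept in 1 of 9 refits and lost with each array centred on its median.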

How the data were processed

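The authors deposited linear probe set intensities of 9 one-colour Affymetrix bovine arrays, for which the submitters' processing notes name PLIER and Affymetrix Expression Console; whether arrays were normalized to each other is not given in the sources used here, and no normalization was added. Of 24128 probe sets, 112 manufacturer controls were left out. In the platform annotation 13292 of the rest carry 1 gene symbol, 86 several and 10638 none; 13263 were matched by gene number to a bovine gene table, which changed 0 symbols.

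Intensities were transformed as log2(value + 16). Probe sets with a mean under the 25th percentile were left out, which kept 18012. A model of the 3 groups was fitted in limma 3.58.1 (R 4.3.3; lmFit, eBayes with an intensity trend) over all 9 arrays, with Benjamini-Hochberg adjustment over all probe sets kept; the script was tested on simulated data. Standard errors come from this fit. A gene in a list is represented by its brightest single-gene probe set.

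NUPR1, LRRN1, AGFG2 and the gene lists were chosen with earlier results of these data known, and the neighbouring genes were added later. Named beside the 3 genes are the 5 genes of highest r to each, fixed relatives (LRRN2, LRRN3, LRRN4, AGFG1, ATF4, DDIT3, TRIB3), up to 6 called members of a list, and genes around the threshold. Other named genes (PTMA, CDKN1A, PSPH, SHMT2, ATF5, CEBPG, VLDLR, SLC3A2, AMIGO2, LRIG3, ACAP1, the called neighbours, the markers and genes that differed between 5 h and 24 h) were chosen after their values were seen. Arrays of the same replicate number deviated together from their group means (correlations of 0.56 to 0.90 over probe sets for the 9 pairs), so the numbers were taken as pairs and blocked values are given. Alternatives were other pseudocounts, array centring, quantile normalization, no filter, the block, the 6 arrays compared, every probe set of a gene, and leaving out arrays. The fits that leave out arrays had no block. The number of arrays limits the precision. Neighbouring and overlapping genes were read from the gene table of assembly ARS-UCD2.0. Sequences of the genes were not used here.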

Additional observations from a re-analysis of the deposited data

Results flagged for a closer look

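The 5 h and 24 h changes differed in 11 genes of the related lists by the limma test of 24 h minus 5 h (8 lower and 3 higher at 24 h), a comparison in which 6.15% of all probe sets were called lower and 8.01% higher. On the log2 scale, with SE, the lower ones were SLC7A5 at -2.03 ± 0.26, BNIP3 at -1.82 ± 0.22, PSAT1 at -1.13 ± 0.25 and MTHFD2 at -1.09 ± 0.18 (limma adjusted p = 0.0038, 0.0031, 0.021 and 0.0072). PHGDH stood at -1.08 ± 0.27, ARF2 at -0.98 ± 0.12, PAXIP1 at -0.67 ± 0.19 and PTMA at -0.56 ± 0.13 (limma adjusted p = 0.031, 0.0034, 0.0489 and 0.0257). The higher ones were EHD3 at 1.499 ± 0.34, ACAP1 at 1.42 ± 0.30 and LRFN3 at 1.01 ± 0.20 (limma adjusted p = 0.0235, 0.0171 and 0.0138). These 3 and PAXIP1 and PTMA were not called against untreated cells at either time.

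Among the neighbouring genes the same test called 4 higher and 0 lower: SULT1A1 at 1.67 ± 0.21, BHLHE40 at 1.55 ± 0.27, ITPR1 at 0.97 ± 0.14 and CRBN at 0.73 ± 0.15 (limma adjusted p = 0.0034, 0.0089, 0.0053 and 0.0179). Among the marker lists 5 were higher and 1 lower: CD14 at 1.76 ± 0.19, COL12A1 at 1.42 ± 0.18, THY1 at 0.66 ± 0.18, FMOD at 0.58 ± 0.12, SYT1 at 0.55 ± 0.15 and CLDN5 at -0.73 ± 0.19 (limma adjusted p = 0.0026, 0.0038, 0.0389, 0.016, 0.043 and 0.0341). For NUPR1, LRRN1 and AGFG2 the difference between the times was not tested, because the genes were chosen on the 24 h arrays.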

How the results depend on the processing

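The differences of NUPR1 and AGFG2 moved by less than the pooled SD of the arrays within the groups compared under all 17 alternatives in each comparison, and stayed above 0. Against the SD over replicate pairs, they moved by more for NUPR1 at 5 h, to 1.35 without untreated replicate 2 and 2.23 without 5 h replicate 2 (SD 0.38), and for AGFG2 at 24 h, to 3.31 without untreated replicate 1 (SD 0.22). With the replicate block the log2 differences of the 3 genes were the same and their SE smaller, 0.24 for NUPR1, 0.19 for LRRN1 and 0.18 for AGFG2. LRRN1 at 5 h was above 0 under 16 of 17, the exception being -0.18 without untreated replicate 2. LRRN1 moved with the pseudocount: 24 h minus untreated was 3.83 with 1 and 2.10 with 64, and 24 h minus 5 h was 3.57 and 2.07. Leaving out arrays gave 24 h differences of 2.80 to 3.48 for NUPR1, 2.80 to 3.42 for LRRN1 and 2.85 to 3.31 for AGFG2.

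Calls over all probe sets numbered 87 at 5 h and 1550 at 24 h. With the replicate block they were 1056 and 6452, and with only the 6 arrays compared 13 and 801; centring each array on its median gave 57 at 5 h. Leaving out arrays gave 15 to 127 at 5 h and 296 to 1664 at 24 h. In the related lists together, calls numbered 1 at 5 h and 8 at 24 h; with the block they were 6 and 26, and centring or only the 6 arrays gave 0 at 5 h. Leaving out arrays gave 0 to 2 at 5 h and 4 to 9 at 24 h. The cause of these shifts was not tested.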
